A study of Mus musculus with 7 samples.

Results

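The genes described here are 10 genes of mRNA decay and deadenylation, Zfp36l2, Ythdf2, Btg4, Pabpn1l, Cnot1, Cnot6, Cnot6l, Cnot7, Cnot8 and Pan2, chosen by their symbols among the 55364 genes listed. All 10 were found once, and all 10 were among the 21780 genes with at least 1 TPM (a transcript level that divides reads by exon length and brings each library to a common sum) in at least 2 of the 7 libraries. RNA-seq libraries were made from mini-oocytes, oocyte-like cells grown from mESCs (mouse embryonic stem cells) that carry oocyte transcription factors as transgenes. The 4F-mini-oocytes carried Lhx8, Nobox, Tbpl2 and Figla, and the 8F-mini-oocytes carried those and also Sohlh1, Sub1, Stat3 and Dynll1. Each factor carries a domain that makes it unstable unless Shield-1 is present, and Shield-1 was in the medium from the start and was left out of fresh medium from day 12. All libraries share the parental line BVSC H18, a female line of hybrid 129/C57BL6 background, and S10 medium with SCF and Y-27632. The groups were 4F-mini-oocytes at day 7 (n = 2, pools of 1000 cells), 4F-mini-oocytes at day 21 (n = 3, pools of 10 cells) and 8F-mini-oocytes at day 21 (n = 2, pools of 10 cells). Day, pool size and the leaving out of Shield-1 from fresh medium changed together and cannot be told apart. No day 7 library of 8F-mini-oocytes was analysed here. The labels do not say whether replicates came from separate cultures, so p-values measure only the spread between these samples. In such pools, fewer cells of a type and less RNA per cell cannot be told apart.

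A growing oocyte stores mRNA that the egg and the early embryo later translate and then clear. Clearance begins when the poly(A) tail is shortened by the CCR4-NOT complex, in which CNOT1 is the scaffold, CNOT6 and CNOT6L are alternative nucleases of the CCR4 type, and CNOT7 and CNOT8 are alternative nucleases of the CAF1 type. RNA-binding proteins such as ZFP36L2, which binds AU-rich elements, and YTHDF2, which reads N6-methyladenosine, bring the complex to their targets. BTG4 links CNOT7 and CNOT8 to mRNA at meiotic maturation, PABPN1L binds poly(A) and works with BTG4, and PAN2 is the nuclease of a separate deadenylase that it forms with PAN3.

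All 10 genes were detected in every library and covered a wide range of levels. TPM ran from 12.9 for Cnot6 in a day 21 4F library to 916 for Btg4 in another, and the rank among all listed genes ran from 91 to 9178. In 4F-mini-oocytes at day 21, 8 of the 10 genes were called higher than at day 7 at FDR 0.05, and Zfp36l2 lower. Over all genes tested, 25.3% were called higher and 15.3% lower. Pabpn1l and Btg4 rose most. With quantile normalization and with voom, 5 of the 10 were called higher, and Cnot1 turned to -0.02 with quantile normalization. In 8F-mini-oocytes at day 21, Zfp36l2 was called higher than in 4F-mini-oocytes of the same day, and Pabpn1l, Cnot1 and Cnot8 lower. Over all genes tested, 3.95% were called higher and 4.41% lower in that comparison. The calls of Pabpn1l, Cnot1 and Cnot8 were lost when any 4F library of day 21 was left out.

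**Figure D1:**
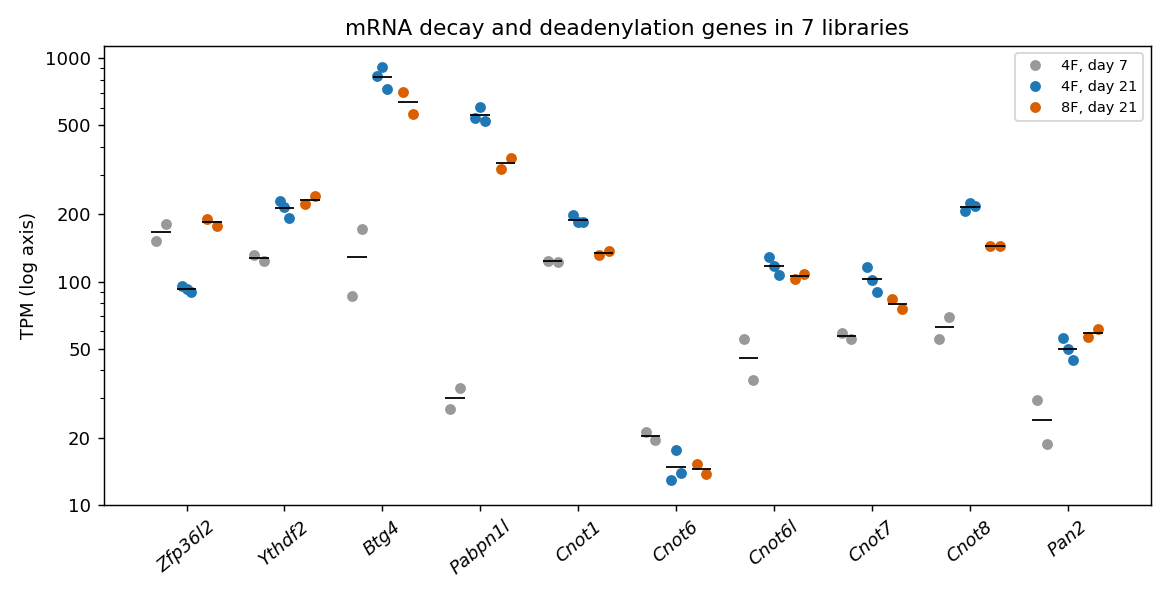
TPM (log axis) of the 10 genes in each library, with points for single libraries (2 at day 7, 3 of 4F and 2 of 8F at day 21) and a black bar for the group mean. Btg4 and Pabpn1l rise farthest from day 7 to day 21, Cnot6 has the lowest mean of the 10 in every group, and Zfp36l2 in 4F at day 21 lies under its other libraries.

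The labels call the cells mini-oocytes, and markers were read to check them. All 10 oocyte markers checked, among them the zona pellucida genes, were at 1 TPM or more in every library, and their summed TPM was between 5875 and 7632 at day 7, between 28846 and 31448 in 4F at day 21 and between 24074 and 24474 in 8F at day 21. The 8 mESC markers summed to between 63.2 and 70.2 TPM at day 7 and to between 78.3 and 94.0 TPM at day 21, with Nanog under 1 TPM throughout. Of these markers, Esrrb was called higher at day 21 against day 7, with log2 fold changes of 2.196 in 4F and 2.12 in 8F. Zfp42 was called lower in the same comparisons (-1.43 and -1.97). Klf2 was called higher in 8F at day 21 against 4F at day 21 (2.51) and against 4F at day 7 (2.004). The 8 granulosa cell markers summed to at most 12.3 TPM in any library, and Inha was listed at 0 in all of them. The 10 markers of other differentiated cells summed to between 1114 and 1588 TPM at day 7, mostly Krt8 and Krt18. At day 21 they summed to between 73.9 and 184.8 TPM. Sox17, a marker of endoderm, was at 0 or under 1 TPM in every library. Hand1 had a mean of 37.8 ± 36.5 TPM at day 7 (SD, n = 2). It was called lower at day 21, with log2 fold changes of -4.86 in 4F and -4.74 in 8F. Within that list Gata4 went the other way, with means of 2.32 TPM at day 7, 40.5 TPM in 4F and 91.6 TPM in 8F at day 21, and was called higher in all 3 comparisons, and Pax6 was called higher at day 21 against day 7 in both factor sets. Between 8F and 4F at day 21, the oocyte markers Npm2, Ddx4 and Nlrp5 were called lower (log2 fold changes -1.01, -0.90 and -0.84). Bmp15 was called higher (0.59). The marker values thus moved with the day and, for these genes, Klf2 and Gata4, with the factors. Their part in the results below was not tested. The steps between low TPM values gave 9506135 to 18027834 estimated reads on genes per library, and for the 10 genes between 127 reads (Pabpn1l at day 7) and 15909 reads (Cnot1 at day 21). Reads were amplified and carry no molecular identifiers, so such numbers stand for counting error only.

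The 10 highest genes took 28.5% and 31.8% of the TPM in the day 7 libraries and between 10.2% and 14.0% in the day 21 libraries. Since TPM is a share of a total, the scale between days depends on how libraries are matched. The median log2 fold change of all genes tested, day 21 against day 7 in 4F-mini-oocytes, was 0.17 with TPM as deposited, 0.04 with quantile normalization, -0.06 with median-of-ratios rescaling, -0.32 with voom on estimated reads and -0.12 with voom and median-of-ratios library sizes. Fold changes are on the scale of log2(TPM + 1) unless another scale is named, and a direction that turned under another scaling is named with it.

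Btg4 and Pabpn1l had the largest differences with the day among the 10 genes. Their promoters are printed with that of Cnot6, which was not called, because FIGLA, one of the induced factors, belongs to the basic helix-loop-helix proteins that bind E-boxes. The sequences are the 250 bases before the RefSeq transcription start on GRCm38.p6, 5′ to 3′ on the strand of the gene, with E-boxes (CANNTG, which reads alike on both strands) in capitals. Btg4 lies on the plus strand with its window at chr9:51115751-51116000, Pabpn1l on the minus strand at chr8:122622736-122622985, and Cnot6 on the minus strand at chr11:49712723-49712972.
Btg4: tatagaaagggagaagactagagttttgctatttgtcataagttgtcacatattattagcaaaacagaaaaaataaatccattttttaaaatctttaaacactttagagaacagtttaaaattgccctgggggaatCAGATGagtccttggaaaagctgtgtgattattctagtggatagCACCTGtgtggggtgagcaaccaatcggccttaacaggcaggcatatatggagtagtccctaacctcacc
Pabpn1l: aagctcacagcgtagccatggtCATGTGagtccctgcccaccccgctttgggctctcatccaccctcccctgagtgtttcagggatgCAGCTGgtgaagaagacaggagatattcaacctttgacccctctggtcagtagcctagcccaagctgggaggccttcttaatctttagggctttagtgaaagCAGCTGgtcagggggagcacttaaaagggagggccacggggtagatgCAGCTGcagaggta
Cnot6: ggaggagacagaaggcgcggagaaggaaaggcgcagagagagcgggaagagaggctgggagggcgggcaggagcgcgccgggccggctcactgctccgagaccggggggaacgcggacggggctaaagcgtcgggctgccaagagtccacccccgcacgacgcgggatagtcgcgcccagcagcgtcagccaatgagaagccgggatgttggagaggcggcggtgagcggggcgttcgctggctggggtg
The Btg4 window holds 2 E-boxes, the Pabpn1l window 4 and the Cnot6 window 0. Of the other genes called higher that could be matched, Pan2 and Ythdf2 hold 0, Cnot8 holds 1 in a single window and 0 in its 3 other windows, and Cnot6l holds 0, 1 or 2 by its start, so high and low counts both occur among genes called higher. Among 32851 promoter windows of the same length, 66.2% hold at least 1 E-box, 31.8% at least 2 and 3.835% at least 4. No window of these 3 genes holds TAATTG or TAATTA, cores of the NOBOX element, on either strand, while the Ythdf2 window holds 1, and 11.25% of all windows hold at least 1 of them. GC content was 38% for Btg4, 55.6% for Pabpn1l and 70.8% for Cnot6, against a median of 52.4% over all windows. The Btg4 window starts within the longer gene that GENCODE annotates, and a match of letters is a description, not a site of binding. RefSeq promoters could be matched for 7 of the 10 genes.

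The question of the first comparison was how these genes differ with the day in 4F-mini-oocytes. Of the 10 genes, 8 were called higher and 1 lower at FDR 0.05 (limma, Benjamini-Hochberg over the 21780 genes tested), against 40.6% of all genes tested called, 25.3% higher and 15.3% lower. The groups did not overlap for 10 of 10 genes, against 56.7% of all genes tested. The median log2 fold change of the 10 genes was 0.94, and that of all genes 0.17. With the other scalings the called genes ran from 5 higher and 2 lower (quantile normalization and voom) to 8 higher and 2 lower (voom with median-of-ratios library sizes), and the median of the 10 from 0.43 to 0.63.

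Among the adaptors, Btg4 (ENSMUSG00000032056.10, chr9:51060901-51119875, plus strand) was at 86.2 and 172 TPM in the day 7 libraries and at 835, 916 and 728 TPM in the day 21 libraries. Every day 21 library was above both day 7 libraries, and the day 7 libraries differed from each other more than for any other gene of the 10 in that group. The log2 fold change was 2.75 (SE 0.29, 6.71-fold, limma adjusted p = 0.000613). Left out in turn, each of the 7 libraries gave values between 2.25 and 3.24, the extremes being without either of the day 7 libraries.

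Pabpn1l (ENSMUSG00000069867.3, chr8:122619471-122622739, minus strand) was at 27.0 and 33.4 TPM at day 7 and at 539.9, 605 and 522 TPM at day 21. No other gene of the 10 rose as far, and it went from the eighth to the second place among the 10 by level. The log2 fold change was 4.16 (SE 0.13, 17.9-fold, limma adjusted p = 2.66e-05), higher than 99.2% of all genes tested.

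Of the RNA-binding recruiters, Ythdf2 (ENSMUSG00000040025.17, chr4:132184912-132212303, minus strand) was at 132 and 124 TPM at day 7 and at 229, 216 and 192 TPM at day 21. The groups lay apart, by less than for the adaptors. The log2 fold change was 0.73 (SE 0.11, limma adjusted p = 0.00281), and the call was lost with quantile normalization (0.10) and with voom (0.20).

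Zfp36l2 (ENSMUSG00000045817.8, chr17:84183931-84187947, minus strand), the recruiter to AU-rich elements, was at 152 and 181 TPM at day 7 and at 95.7, 92.8 and 89.4 TPM at day 21. All 3 day 21 libraries were below both day 7 libraries and lay close together. It fell by 0.83 on the log2 scale (SE 0.11, 0.561-fold, limma adjusted p = 0.00161), and was the lower call in each of the 20 alternatives, with values from -1.44 to -0.71.

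The scaffold gene Cnot1 (ENSMUSG00000036550.16, chr8:95719451-95807464, minus strand) was at 124 and 123 TPM at day 7 and at 198, 185 and 185 TPM at day 21. Its log2 fold change was 0.61 (SE 0.09, limma adjusted p = 0.00227), and with quantile normalization it turned to -0.02 and was not called. With median-of-ratios rescaling the value was 0.27 and with voom 0.08, neither of them called.

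The CCR4-type nucleases differed from each other. Cnot6l (ENSMUSG00000034724.18, chr5:96070333-96164171, minus strand) was at 55.1 and 36.1 TPM at day 7 and at 129, 117 and 107 TPM at day 21, a log2 fold change of 1.38 (SE 0.19, limma adjusted p = 0.00178). Cnot6 (ENSMUSG00000020362.13, chr11:49671503-49712723, minus strand) was at 21.2 and 19.5 TPM at day 7 and at 12.9, 17.6 and 13.9 TPM at day 21. Its groups did not overlap, the day 21 libraries being the lower ones, and its log2 fold change of -0.44 (SE 0.21, 95% interval -0.95 to 0.06) was not called (limma adjusted p = 0.145). It was called lower in the 4 other scalings, at -0.68 with quantile normalization, -0.77 with median-of-ratios rescaling, -1.01 with voom and -0.82 with voom and median-of-ratios library sizes.

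The CAF1-type nucleases were both higher at day 21. Cnot8 (ENSMUSG00000020515.13, chr11:58104153-58118594, plus strand) was at 55.3 and 69.4 TPM at day 7 and at 207, 224 and 219 TPM at day 21. Its log2 fold change was 1.79 (SE 0.12, 3.46-fold, limma adjusted p = 0.000132). Cnot7 (ENSMUSG00000031601.16, chr8:40492540-40515847, minus strand) was at 58.8 and 55.3 TPM at day 7 and at 116, 102 and 89.7 TPM at day 21. Its log2 fold change was 0.82 (SE 0.14, limma adjusted p = 0.00389), and the call was lost with quantile normalization (0.21) and voom (0.31).

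Pan2 (ENSMUSG00000005682.9, chr10:128303335-128321358, plus strand), the nuclease of the other deadenylase, was at 29.4 and 18.8 TPM at day 7 and at 55.6, 50.1 and 44.6 TPM at day 21. The log2 fold change was 1.05 (SE 0.21, 2.08-fold, limma adjusted p = 0.00784), with every day 21 library above both day 7 libraries.

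**Figure D2:**
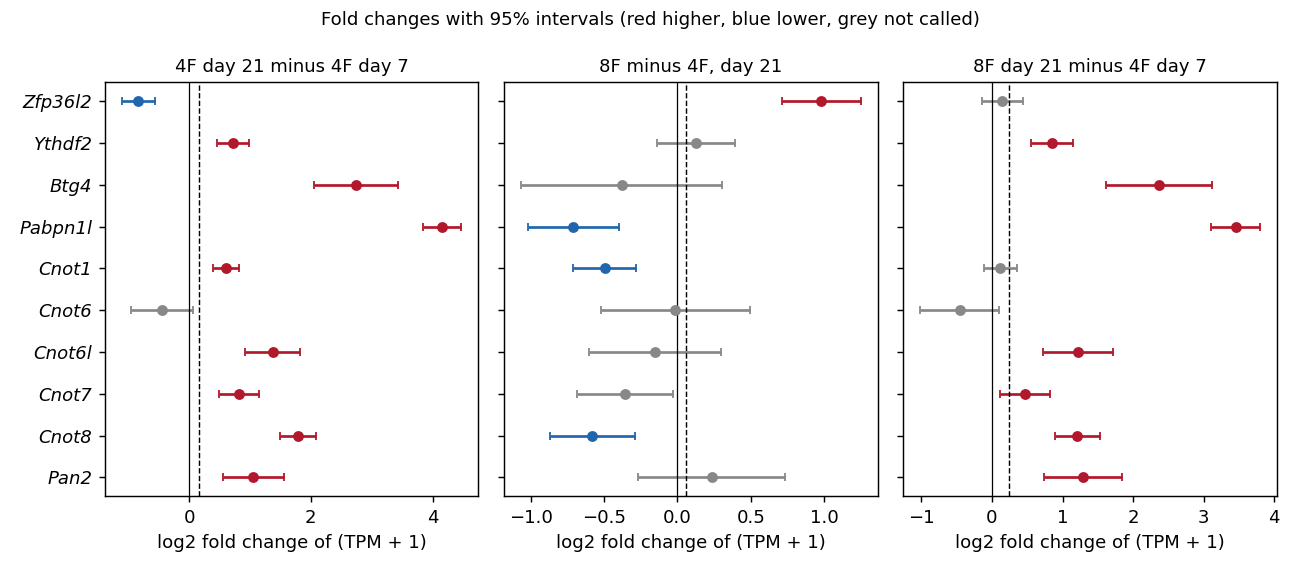
Log2 fold changes of (TPM + 1) of the 10 genes in 3 comparisons, with 95% intervals from limma. Red points are called higher, blue points lower and grey points are not called at FDR 0.05, and the dashed line is the median of all genes tested. With 4F at day 21 against day 7, 8 points are red, of which Cnot1 turned to -0.02 with quantile normalization, and 1 is blue. With 8F against 4F at day 21, 1 is red and 3 are blue.

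The order of the 10 genes by level, taken per exon length, changed between the groups. At day 7 the highest mean was 166 ± 20.02 TPM for Zfp36l2 (SD, n = 2), followed by Btg4, Ythdf2 and Cnot1, and the ranges of these 4 genes overlapped between neighbours in that order. In 4F-mini-oocytes at day 21 the order began with Btg4 at 826 ± 94.5 TPM (SD, n = 3) and Pabpn1l at 556 ± 43.3 TPM (SD, n = 3), each apart from the next, and Zfp36l2 took the eighth place at 92.6 ± 3.14 TPM (SD, n = 3). Cnot8, Ythdf2 and Cnot1 held the next places and overlapped between neighbours, as did Cnot6l, Cnot7 and Zfp36l2. In 8F-mini-oocytes at day 21, no neighbours overlapped, and Zfp36l2 took the fourth place at 184 ± 10.1 TPM (SD, n = 2). Cnot6 was last by its mean in all 3 groups, and at day 7 its range overlapped that of Pan2.

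The next comparison asked how 8F-mini-oocytes differ from 4F-mini-oocytes at the same day and pool size. Of the 10 genes, 1 was higher and 3 were lower, against 8.37% of all genes tested called, 3.95% higher and 4.41% lower. The groups did not overlap for 7 of 10 genes, against 43.8% of all genes tested. The comparison shares the day 21 4F libraries with the one before it. Values were written with up to 9 decimals for 4F and 17 for 8F libraries. The writing of the table, the cell line with its reporter cassette and the set of factors cannot be told apart.

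Zfp36l2 was at 191 and 177 TPM in the 8F libraries, against 95.7, 92.8 and 89.4 TPM in the 4F libraries of day 21. Both 8F libraries were above all 4F libraries of that day and near the day 7 libraries. The log2 fold change was 0.98 (SE 0.11, 1.98-fold, limma adjusted p = 0.00704). Without 8F replicate 1 it was 0.93 and without 8F replicate 2 it was 1.04, with adjusted p values of 0.0722 and 0.0521 from limma. In these fits the single 8F library left is assumed to vary like the libraries of the other groups.

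Pabpn1l, Cnot1 and Cnot8 were lower in 8F-mini-oocytes. Pabpn1l was at 319.5 and 359 TPM in 8F libraries, against 522 to 605 TPM in 4F libraries, and fell by 0.71 on the log2 scale (SE 0.13, limma adjusted p = 0.0253). Cnot1 was at 131 and 136 TPM, against 185 to 198 TPM, and fell by 0.50 (SE 0.09, limma adjusted p = 0.0241). Cnot8 was at 145 and 144 TPM, against 207 to 224 TPM, and fell by 0.58 (SE 0.12, limma adjusted p = 0.0359). In each case both 8F libraries were below all 3 of the 4F libraries. None of these 3 calls was made when any day 21 library was left out, and the Cnot8 call was also lost with median-of-ratios rescaling and quantile normalization (limma adjusted p = 0.0662 and 0.0598). The directions stayed the same in all 20 alternatives.

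The other 6 genes were not called. Btg4 was at 707 and 564 TPM in 8F libraries against 728 to 916 TPM in 4F libraries, a log2 fold change of -0.38 (95% interval -1.07 to 0.30, limma adjusted p = 0.517). Cnot7 was at 83.6 and 75.2 TPM against 89.7 to 116 TPM, a log2 fold change of -0.36 (95% interval -0.68 to -0.03, limma adjusted p = 0.19). For Ythdf2 the log2 fold change was 0.12 (95% interval -0.14 to 0.39), for Cnot6l -0.15 (-0.61 to 0.30) and for Pan2 0.23 (-0.27 to 0.74). For Cnot6 it was -0.01 (95% interval -0.52 to 0.49), and it turned positive in 4 of 20 alternatives, among them both voom fits.

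In the comparison of 8F-mini-oocytes at day 21 with 4F-mini-oocytes at day 7, factors, cell line, day, pool size and Shield-1 in fresh medium all differ. Both groups are shared with the comparisons above. Of the 10 genes, 7 were higher (Cnot7 among them turned to -0.08 with quantile normalization) and 0 lower, against 37.2% of all genes tested called, 24.2% higher and 13.0% lower. The groups did not overlap for 9 of 10 genes, against 72.3% of all genes tested. Pabpn1l had a log2 fold change of 3.45 (SE 0.14, limma adjusted p = 7.29e-05) and Btg4 of 2.37 (SE 0.31, limma adjusted p = 0.002). Pan2, Cnot6l, Cnot8 and Ythdf2 were higher by 1.29, 1.22, 1.21 and 0.85 on the log2 scale. The call of Cnot7, 0.47 with limma adjusted p = 0.0495, was held in 6 of 20 alternatives. Zfp36l2 (0.15) and Cnot1 (0.12) were not called, and both were below 0 with the 4 other scalings, from -0.18 to -0.40 for Zfp36l2 and from -0.21 to -0.45 for Cnot1, with 1 of those values called lower for Zfp36l2 and 3 for Cnot1. Cnot6 was at -0.46 and was not called, and with the 4 other scalings it was called lower, at -0.72 to -0.87. The 7 higher and 0 lower calls became 5 and 3 with quantile normalization and 6 and 2 with voom.

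Shares within a family are not changed by a single scaling factor per library, since both terms come from the same library, but quantile normalization would change them. Btg4 made up 32.3% and 46.9% of the summed TPM of the 6 BTG and TOB genes at day 7, between 76.9% and 81.1% in 4F-mini-oocytes at day 21, and 74.1% and 71.4% in 8F-mini-oocytes. Beside it, Btg1, a relative that acts on general deadenylation, was at 28.7 and 36.0 TPM at day 7 and between 13.1 and 17.6 TPM in 4F at day 21, and was called lower (-1.01, limma adjusted p = 0.00745). Btg3 was lower as well (-0.95, limma adjusted p = 0.0136), and Btg2 was not called (-0.88, limma adjusted p = 0.13) with TPM as deposited but was called lower with quantile normalization and both voom fits.

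Pabpn1l made up 35.3% and 46.8% of the pair it forms with Pabpn1, the nuclear poly(A)-binding protein, at day 7. At day 21 its share was between 87.5% and 91.1% in 4F and 91.1% and 91.0% in 8F libraries. Pabpn1 itself was at 49.6 and 37.9 TPM at day 7. At day 21 it was between 59.2 and 74.6 TPM in 4F and at 31.2 and 35.3 TPM in 8F libraries.

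Zfp36l2 made up 83.0% and 80.0% of the 4 ZFP36 genes at day 7 and between 92.2% and 98.9% in the 5 libraries of day 21. Zfp36l1 was at 18.7 and 22.3 TPM at day 7 and at most 3.44 TPM at day 21. Zfp36l3 was at 9.17 and 17.5 TPM at day 7 and listed at 0 in all 5 libraries of day 21. Zfp36 itself, also called tristetraprolin, was between 0.677 and 5.50 TPM in all 7 libraries and was not called in any comparison. In 4F-mini-oocytes at day 21, the share of Zfp36l2 was thus higher than at day 7 and its own level was lower.

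Ythdf2 made up 48.4% and 47.6% of the 3 YTHDF genes at day 7 and between 57.5% and 60.9% at day 21, over both factor sets. Ythdf1 and Ythdf3, its paralogs, had log2 fold changes of 0.22 (limma adjusted p = 0.195) and -0.14 (limma adjusted p = 0.439) at day 21 against day 7 in 4F with TPM as deposited. With the other scalings Ythdf1 turned to values from -0.39 to -0.11 and was called lower with quantile normalization. Ythdf3 was called lower with all 4 of them, at -0.48 to -0.72.

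Within the nuclease pairs, Cnot6l made up 72.2% and 65.0% of the summed TPM of Cnot6 and Cnot6l at day 7 and between 86.9% and 90.9% at day 21 over both factor sets. Cnot8 made up 48.4% and 55.6% of the summed TPM of Cnot7 and Cnot8 at day 7, between 64.2% and 70.9% in 4F at day 21 and 63.4% and 65.6% in 8F at day 21. As log2 ratios, Cnot6l over Cnot6 was 1.10 ± 0.34 at day 7 (SD, n = 2), 2.92 ± 0.28 in 4F (SD, n = 3) and 2.78 ± 0.14 in 8F (SD, n = 2) at day 21. The day 7 and day 21 libraries did not overlap for either pair. An exact permutation test (two-sided) of 2 against 3 libraries cannot go below p = 0.2 and of 2 against 2 not below 0.333, and the Cnot6l ratio of 4F at day 21 against day 7 was at that smallest p of 0.2, or 0.48 after adjustment over the 6 tests.

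For the nucleases relative to the scaffold, all day 21 libraries lay above both day 7 libraries, and no test was run. The ranges of 4F and 8F at day 21 overlapped for Cnot7 and Cnot8 together and for Pan2 over Pan3. Cnot7 and Cnot8 together were at 0.921 and 1.02 times the TPM of Cnot1 at day 7, between 1.63 and 1.77 times in 4F at day 21, and at 1.74 and 1.61 times in 8F at day 21. Cnot6 and Cnot6l together were at 0.616 and 0.453 times Cnot1 at day 7, between 0.654 and 0.730 times in 4F and at 0.902 and 0.893 times in 8F at day 21. Pan2 was at 0.559 and 0.363 times the TPM of its partner Pan3 at day 7, between 0.902 and 1.18 times in 4F and at 0.723 and 0.995 times in 8F at day 21. Pan3 was not called between the days in 4F-mini-oocytes (-0.10, limma adjusted p = 0.67) with TPM as deposited, and was called lower with quantile normalization and both voom fits.

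**Figure D3:**
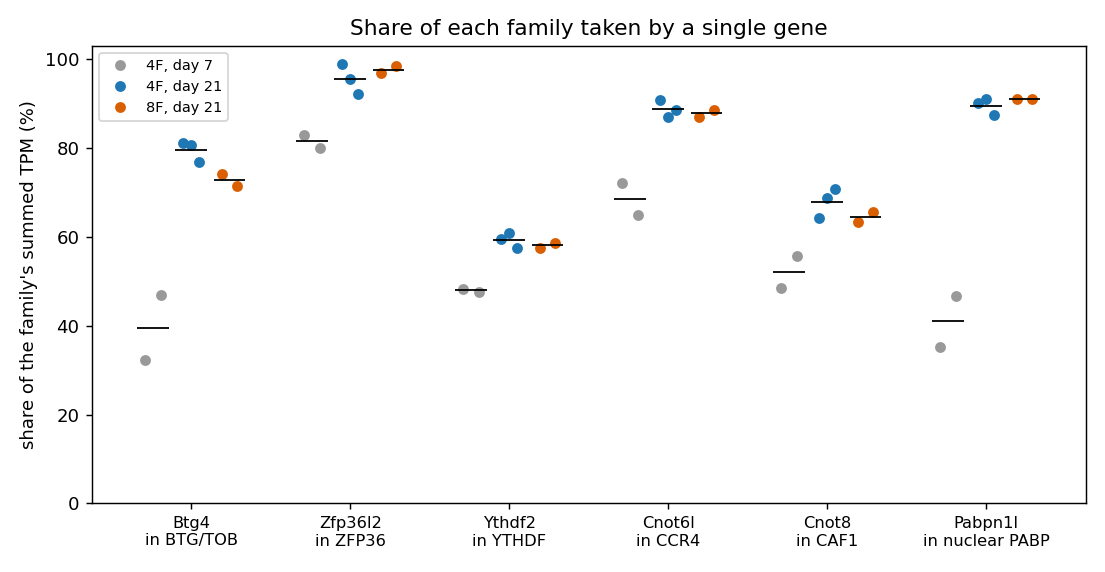
Share (%) of a family's summed TPM taken by the named gene in each library, with points for libraries and a black bar for the group mean. For Btg4, Pabpn1l, Cnot6l, Cnot8, Ythdf2 and Zfp36l2 the day 7 libraries lie below all day 21 libraries.

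The rest of the decay machinery was read from 58 further genes in 7 lists, all of them tested. With the day in 4F-mini-oocytes, 24 were called higher and 6 lower, which is 51.7% against 40.6% of all genes, and with voom the counts were 17 higher and 23 lower, so the balance of directions turned with the scaling. Of the 6 other CCR4-NOT genes, Cnot2, Cnot3, Cnot4 and Cnot11 were higher, and Cnot9 and Cnot10 were not called. Cnot3 rose by 1.73 on the log2 scale (93.6 and 106 TPM at day 7, 320.2 to 355 TPM at day 21, limma adjusted p = 0.000162). With quantile normalization 3 of the 6 were called higher, and Cnot9 was called lower with each other scaling. Of the 7 other deadenylases, Parn, Noct, Angel2 and Pde12 were higher and none was lower, against 1 or 2 lower with the other scalings. Of the 14 genes of the exosome, which degrades mRNA from the 3′ end, and its SKI partners, 7 were higher and none was lower, against 4 to 6 higher and 1 or 2 lower with the other scalings, with Dis3l, a cytoplasmic exosome nuclease, at 1.92 (limma adjusted p = 0.000392). Of the 9 genes for decapping and 5′ decay, 3 were higher, with Dcp1a, a cofactor of the decapping enzyme, at 2.01 (limma adjusted p = 6.07e-05), Lsm1 at 1.78 (limma adjusted p = 0.000426) and Edc4 at 1.39. None of the 9 was lower with TPM as deposited, and with the other scalings 3 to 5 were.

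Of the 4 poly(A)-binding protein genes, 3 were called higher. Pabpc1l, the form known from oocytes and early embryos, was at 0.281 and 3.44 TPM at day 7. In 4F at day 21 it was at 207, 205 and 191 TPM. Its log2 fold change was 6.41 (SE 0.46, limma adjusted p = 0.000169). Pabpc4 and Pabpn1 were the other 2, and with the 4 other scalings neither was called, Pabpc4 turning to -0.16 with quantile normalization and -0.14 with voom. With quantile normalization and both voom fits, 1 of the 4 genes was called higher and 1 lower. Of the 15 other recruiters, 2 were higher (Tob1 and Tob2) and 5 lower, and with the 4 other scalings 1 was higher and 8 to 10 lower, the Tob1 call being lost in each. The lower ones named by rule were Zfp36l1 (-3.68, limma adjusted p = 0.00443), Zfp36l3, Btg1 and Btg3. Of the 3 uridylation genes, Dis3l2 was called higher, a call lost with median-of-ratios rescaling and with voom, and Tut4, which adds uridines to short tails, was lower (33.2 and 17.2 TPM at day 7, 2.31 to 5.19 TPM in 4F at day 21, log2 fold change -2.36, limma adjusted p = 0.00691).

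Between 8F and 4F at day 21, 4 of the 58 genes were called, which is 6.90% against 8.37% of all genes. Tnrc6c, which couples microRNA complexes to CCR4-NOT, was higher by 0.92 on the log2 scale (limma adjusted p = 0.0459), a call lost with quantile normalization. Pabpn1 fell by 0.92, Exosc9 by 0.69 and Pabpc1, the main cytoplasmic poly(A)-binding protein of somatic cells, by 0.62. Between 8F at day 21 and 4F at day 7, 22 were higher and 9 lower, which is 53.4% against 37.2% of all genes, and the counts were 18 and 15 with quantile normalization and 17 and 15 with voom. The largest of the higher ones were Pabpc1l (6.31), Angel2 (2.18), Cnot11 (2.03), Edc4 (1.92) and Dcp1a (1.90). Among the lower ones were Zfp36l1 (-2.98), Tut4 (-2.66), Btg3 (-1.28) and Zfp36l3, listed at 0 in both 8F libraries.

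**Figure D4:**
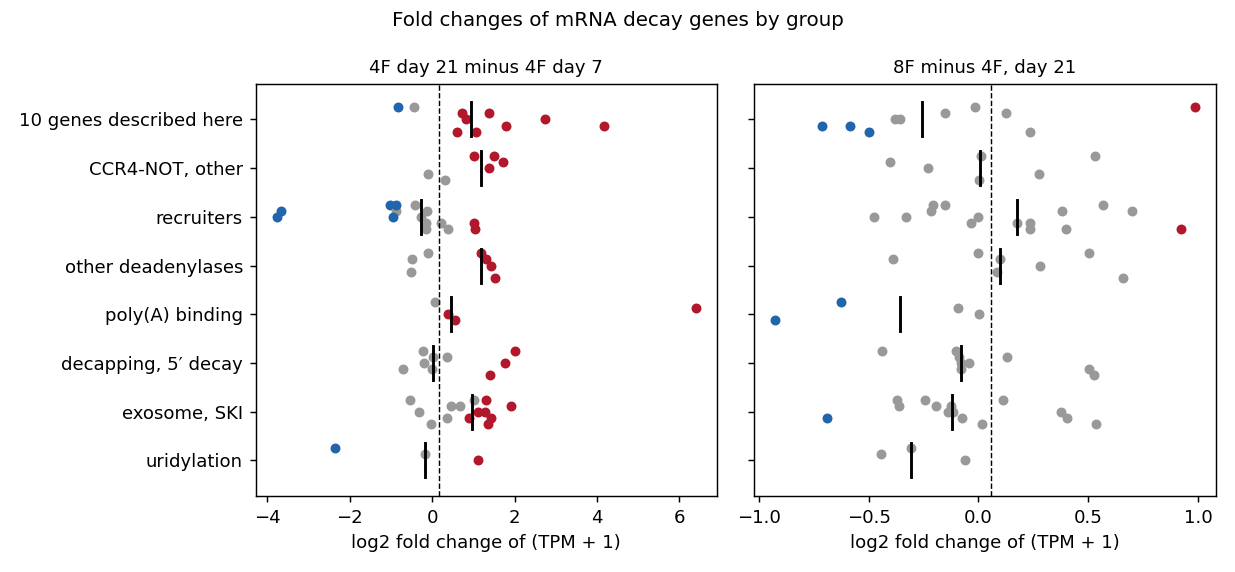
Log2 fold changes of (TPM + 1) of the 10 genes and of the 58 further mRNA decay genes by list, each point a gene, with the list median as a black bar, red for higher, blue for lower and grey for not called, and the dashed line at the median of all genes tested. With 4F at day 21 against day 7 the recruiters lie on both sides of 0, and with 8F against 4F most points are grey. With voom on estimated reads the day comparison has 23 of the 58 lower and 17 higher.

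The patterns most like these were sought among 10581 genes whose mean TPM was 10 or more, by the distance of log2(TPM + 1) centred over the 7 libraries. The nearest to Btg4 were Calr4 (distance 0.30), Fbxw15 (0.38) and Syt5 (0.45). Fbxw15 was at 75.2 and 156 TPM at day 7, between 694 and 816 TPM in 4F and at 772 and 643 TPM in 8F at day 21. The nearest to Zfp36l2 were Mif (0.28), Actg1 (0.29) and Cacfd1 (0.35). The nearest to Cnot6l were Ppp4r1 (0.17), Espl1 (0.23) and Tinf2 (0.26). Among the 10 genes, Cnot1 and Cnot7 were nearest to each other (0.43), as were Cnot6l and Pan2 (0.47). The 7 libraries form 3 groups, so these distances mostly rest on 3 levels.

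**Figure D5:**
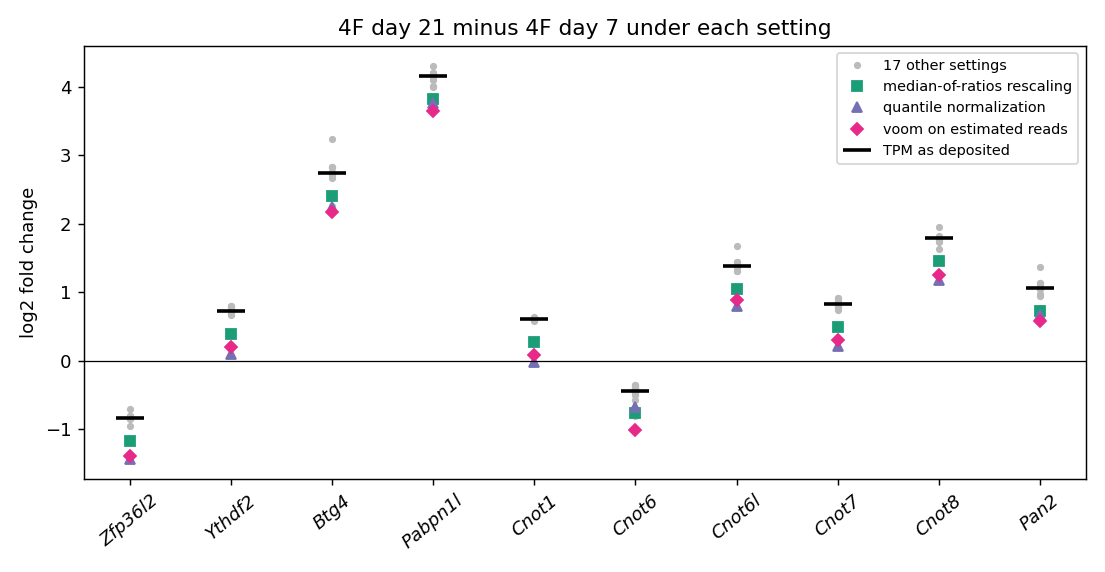
Log2 fold changes, 4F at day 21 minus day 7, of the 10 genes with TPM as deposited (black bar) and under 20 alternatives, of which median-of-ratios rescaling, quantile normalization and voom have their own symbols. Pabpn1l, Btg4, Cnot8, Cnot6l and Pan2 stay above 0 and Zfp36l2 and Cnot6 below it, while Cnot1 reaches -0.02 with quantile normalization.

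Near-identical copies and overlapping genes involve small parts of these genes. At most 7.82% of the 50-base words of a gene (Cnot8) also occur in other genes, and at most 4.24% of its exon bases (Cnot7, with Zdhhc2 on the opposite strand) overlap another gene, and no strand option is named for the counting.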

How the data were processed

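RNA of 7 libraries was read from a table of TPM. The authors trimmed read pairs with Trim Galore, mapped them to mm10 with HISAT2, removed rRNA with bedtools, restricted the rest to unique alignments, counted over GENCODE vM25 with featureCounts, and deposited TPM. Reads over several genes count as fractions. The paper names different NovaSeq instruments with different read lengths and does not say which library ran on which. Their part in the comparisons was not tested. Counts were not used here, so limma (version 3.58.1, R 4.3.3, eBayes with trend, two-sided) was fitted to log2(TPM + 1) of 21780 genes that reached 1 TPM in 2 or more libraries, with 3 groups and no block, at FDR 0.05 over all genes tested. This scale understates fold changes of low genes.

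Exon lengths and coordinates are those of GENCODE vM21 on mm10. TPM steps gave depth. Their unit may be a read or a read pair, and between 80.2% and 85.0% of low values came out whole within 0.02. Promoters are RefSeq's. The fit was tested on simulated data.

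The genes and lists were chosen with earlier results of these data known, and the study itself shows Zfp36l2 and Cnot6l. Named genes are the 10 genes, their paralogs, for each comparison up to 5 listed decay genes per direction with the largest called change, no overlap and at least 10 TPM, and the 3 genes most like Btg4, Zfp36l2 and Cnot6l. Other decay genes named were picked after their values were seen, and 1 gene that the rule names is not reported here. Alternatives were pseudocounts of 0.1 and 5, no filter, 5 TPM, median-of-ratios and quantile scaling, eBayes without trend, array weights, 2 groups alone, the replicate block, each library left out and voom. Chosen after seeing the data were voom with median-of-ratios library sizes and genes of at least 300 exonic bases.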

Additional observations from a re-analysis of the deposited data

How the results depend on the processing

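The main limits are the scaling between days, groups of 2 or 3 libraries and shared controls. Of the log2 fold changes of the 10 genes in 3 comparisons, each under 20 alternatives, 529 kept their direction and side of the threshold, 49 lost the call, 8 gained one and 14 reversed. The causes were not tested. Where a left-out library leaves a group with 1, that library is assumed to vary like the other groups. Between the days in 4F-mini-oocytes, the calls of Zfp36l2, Btg4, Pabpn1l, Cnot6l, Cnot8 and Pan2 were made in all 20 alternatives, and quantile normalization turned Cnot1 to -0.018. The share of all called genes that were higher was 62.3%, and it fell to 52.0% with quantile normalization, 48.6% with median-of-ratios rescaling, 37.5% with voom and 45.9% with voom and median-of-ratios library sizes.

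Between 8F and 4F at day 21, 1822 genes were called, against 994 with eBayes without trend, 3572 with array weights, and 306 to 2221 with a library left out. Of the 10 genes 4 were called, against 1 without trend and 0 to 4 with a library left out: 1 without any 4F library of day 21 and 0 without either 8F library, where 306 and 357 genes were called in all. Of the 58 further decay genes 4 were called, against 0 without trend, 9 with array weights, 10 with voom, 11 with voom and median-of-ratios library sizes, and 0 to 5 with a library left out. Cnot6 turned to 0.15 with voom and 0.0072 with voom and median-of-ratios library sizes, and lay between -0.10 and 0.11 with a library left out, above 0 without 4F replicate 2 and without 8F replicate 2 (0.05). The higher share was 47.3%, against 62.8% with voom, 61.1% without trend, and 73.5% and 71.1% without 8F replicate 1 and 2. The Cnot6l over Cnot6 log2 ratio, -0.14 in this comparison, was between -0.27 and 0.012 with a library left out, above 0 without 4F replicate 1 alone.

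Between 8F at day 21 and 4F at day 7, 8103 genes were called, against 4089 to 8281 with a library left out, and of the 10 genes 7 were called, against 4 to 7. The lowest counts came without 8F replicate 2, and without 8F replicate 1 there were 4215 genes. Zfp36l2 turned to -0.18, -0.40, -0.25 and -0.19, and Cnot1 to -0.21, -0.45, -0.27 and -0.21, under median-of-ratios rescaling, quantile normalization, voom, and voom with median-of-ratios library sizes. Cnot7 turned to -0.084 with quantile normalization. The higher share was 65.1%, against 51.5%, 51.1%, 47.5% and 49.96% with these scalings.

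Labels give replicate numbers in every group, but libraries of the same number did not deviate together (correlations of their deviations from the group means between -0.04 and 0.01), so the numbers were not taken as a pairing. With the replicate block, 7241 genes were called between the days in 4F, 164 between 8F and 4F at day 21, and 7037 between 8F at day 21 and 4F at day 7. Of the 10 genes, 9, 0 and 6 were called, and of the 58 further genes 0 between 8F and 4F.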
